A study of Mus musculus with 6 samples.

Results

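The genes described are 9 genes of retinoid storage and metabolism, chosen by name from a table of 56691 genes measured in the liver of pregnant mice. They are Lrat, Retsat, Dhrs3, Rdh16, Adh1, Aldh1a1, Aldh1a7, Cyp26a1 and Rarb. Of these, 8 passed the filter of a mean of at least 1 FPKM (counts per kilobase of exonic length, scaled to a common library total) and were tested among 10756 genes. Rarb, at a mean of 0.34 FPKM, was not. The PF group was pregnant WT C57BL/6J mice given a high-fructose diet (HFrD) from the eighth day of pregnancy. The PC group was pregnant WT mice of the same strain on normal chow (NC). Livers were collected on the seventeenth day, and 3 libraries of poly(A) RNA were sequenced from each group. All 6 livers thus came from pregnant females with no allele altered, and the age of the mice is not given in the sources used here. The comparison asks how HFrD during pregnancy changes liver RNA, and bulk liver mixes cell types, so fewer cells of a type and less RNA per cell cannot be told apart.

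Vitamin A reaches the liver as retinyl esters and is stored, again as esters, mainly in the lipid droplets of hepatic stellate cells. Lrat makes the ester, hydrolases release retinol, and retinol is carried in blood by Rbp4 bound to Ttr. Retinol dehydrogenases and alcohol dehydrogenases oxidise retinol to retinal, Dhrs3 reduces retinal back to retinol, and enzymes such as Aldh1a1 oxidise retinal irreversibly to retinoic acid. Retinoic acid binds the nuclear receptors Rara, Rarb and Rarg paired with retinoid X receptors. It is cleared by Cyp26 enzymes, and Cyp26a1, Rarb, Dhrs3 and Lrat are themselves known targets of retinoic acid.

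The upstream sequences of Cyp26a1 and Rarb are shown because these were the members of the set whose start regions held a direct repeat of the kind that retinoic acid receptors bind. RefSeq promoter windows on GRCm38.p6, from 250 bases before to 50 bases after a start site, were matched for all 9 genes, at 12 start sites. The motif, called DR5, was 2 copies of a 6-base element in the same orientation with 5 bases between them, searched on both strands. The element was AGGTCA itself or any of the variants AGTTCA and likewise GGGTCA and likewise GGTTCA. DR5 was found in 32 of 32817 promoter windows, or 0.0975%. In Cyp26a1 it ran from base -32 to base -16 relative to the start site, on the strand opposite to the gene, and in Rarb from base -53 to base -37 on the gene's own strand. The 250 bases before each start site follow, with both copies of the repeat in capitals.
Cyp26a1, GRCm38.p6 chr19:37697558-37697807, plus strand: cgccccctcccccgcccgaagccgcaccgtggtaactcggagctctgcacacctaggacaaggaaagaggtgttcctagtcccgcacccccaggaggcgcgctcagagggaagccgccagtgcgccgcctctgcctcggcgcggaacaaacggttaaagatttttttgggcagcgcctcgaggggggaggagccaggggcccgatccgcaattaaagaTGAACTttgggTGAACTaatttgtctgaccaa
Rarb, GRCm38.p6 chr14:16575477-16575726, minus strand: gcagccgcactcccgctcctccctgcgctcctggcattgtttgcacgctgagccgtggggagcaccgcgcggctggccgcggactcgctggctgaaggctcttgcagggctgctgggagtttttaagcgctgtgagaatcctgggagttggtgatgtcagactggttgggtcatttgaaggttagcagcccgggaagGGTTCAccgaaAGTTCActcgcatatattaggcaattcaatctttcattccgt
The same repeat with a spacer of 1 or 2 bases was found in none of the 9 genes, against 0.222% and 0.268% of all windows. A single copy of the 6-base element, present in 43.7% of all windows and part of each DR5, also occurred elsewhere in the windows of Retsat, Rdh16, Rarb, Aldh1a1 and Aldh1a7. The E-box CACGTG, whose 2 strands read alike, was found in the window of Adh1, from base 4 to base 9 after the start site, and in 7.15% of all windows. A match describes letters in these windows, and binding was not measured.

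The start regions of Aldh1a1 and Aldh1a7, which lie beside each other on chromosome 19, are shown because they were alike at one of the Aldh1a1 start sites. Over the last 100 bases before the start site, 94.0% of positions were identical between Aldh1a7 and the second of the Aldh1a1 start sites, against 51.6% over 250 bases. At the other Aldh1a1 start site 30.0% of positions were identical over 100 bases and 25.2% over 250 bases. Aldh1a7 and the second Aldh1a1 start site both held the single element on the opposite strand, where it reads TGACCC along the gene, from base -49 to base -44, given in capitals in the last 80 bases before each start site.
Aldh1a1, GRCm38.p6 chr19:20601888-20601967, plus strand: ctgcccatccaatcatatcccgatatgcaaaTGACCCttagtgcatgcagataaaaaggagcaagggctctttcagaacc
Aldh1a7, GRCm38.p6 chr19:20727557-20727636, minus strand: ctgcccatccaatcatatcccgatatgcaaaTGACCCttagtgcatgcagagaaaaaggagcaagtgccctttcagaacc

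Levels between genes were compared per transcript length, as FPKM. In PF livers the order was Adh1 at 900.3 ± 76.2 FPKM (SD, n = 3 here and for each FPKM mean that follows), Aldh1a7 at 224 ± 193, Aldh1a1 at 166 ± 83.6, Rdh16 at 49.8 ± 8.19, Retsat at 46.8 ± 37.1, Dhrs3 at 37.6 ± 23.3, Cyp26a1 at 16.6 ± 12.4 and Lrat at 5.08 ± 2.80 FPKM. In PC livers it was Adh1 at 911 ± 114 FPKM, Aldh1a7 at 614 ± 51.2, Aldh1a1 at 240 ± 36.8, Rdh16 at 22.5 ± 10.7, Dhrs3 at 20.9 ± 6.10, Cyp26a1 at 20.9 ± 10.4, Retsat at 19.6 ± 13.6 and Lrat at 1.53 ± 0.575 FPKM. Rarb was last in both groups, at 0.31 FPKM in each PF library and between 0.34 and 0.42 FPKM in the PC libraries. Aldh1a7 and Aldh1a1 stood apart by more than their spread in PC livers, and not in PF livers. Rdh16, Dhrs3, Cyp26a1 and Retsat were within their spreads of each other in PC livers, and so were Rdh16, Retsat and Dhrs3 in PF livers.

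No gene of the 10756 tested, and so none of the 8 retinoid genes, reached an adjusted p of 0.05 in edgeR's quasi-likelihood test with Benjamini-Hochberg adjustment, a background of 0%. In the same test 1832 genes had an unadjusted p under 0.05, and DESeq2 called 495 at an adjusted p under 0.05. At an unadjusted p under 0.05, Lrat and Rdh16 were higher in PF livers and Aldh1a1 and Aldh1a7 were lower. That is 2 of 8 in each direction, beside 9.13% of all tested genes higher and 7.9% lower. DESeq2, another count test, called 1 of the 8, Aldh1a1, as lower at an adjusted p under 0.05, beside 2.62% of all genes called lower and 1.98% called higher. In CPM (counts scaled to a common library total and by TMM factors), all PF libraries lay above all PC libraries for 1 gene, Rdh16, beside 11.8% of tested genes. All PF libraries lay below all PC libraries for 3, Aldh1a1, Aldh1a7 and Adh1, beside 11.1% of tested genes. The median log2 fold change of the 8 genes was 0.02, and that of all tested genes was 0.02.

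The libraries held 16119145 to 19676361 counts. Mitochondrial transcripts took 10.0% to 15.3% of counts in PF libraries and 5.03% to 9.69% in PC libraries, and Alb took 7.56% to 15.8% in PF libraries and 18.1% to 19.9% in PC libraries. Scaled by library totals alone, the median log2 fold change of all tested genes was 0.39, so CPM values here carry TMM factors and FPKM values do not. Hepatocyte markers were all tested (10 of 10) and summed to 90994 to 203865 CPM in PF livers and 256715 to 304980 CPM in PC livers. Most of each sum was Alb, at 64739, 160769 and 62746 CPM in PF livers and 231352, 199332 and 223607 CPM in PC livers. In its profile over all genes PF2 was nearer to PC2 than to the other PF libraries. The part of these differences in the results below was not tested, and values without PF2 are given where they change a call. Leaving out PF2 raised the number of all genes called in edgeR from 0 to 403, and leaving out any other library gave 0 or 1.

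**Figure D1:**
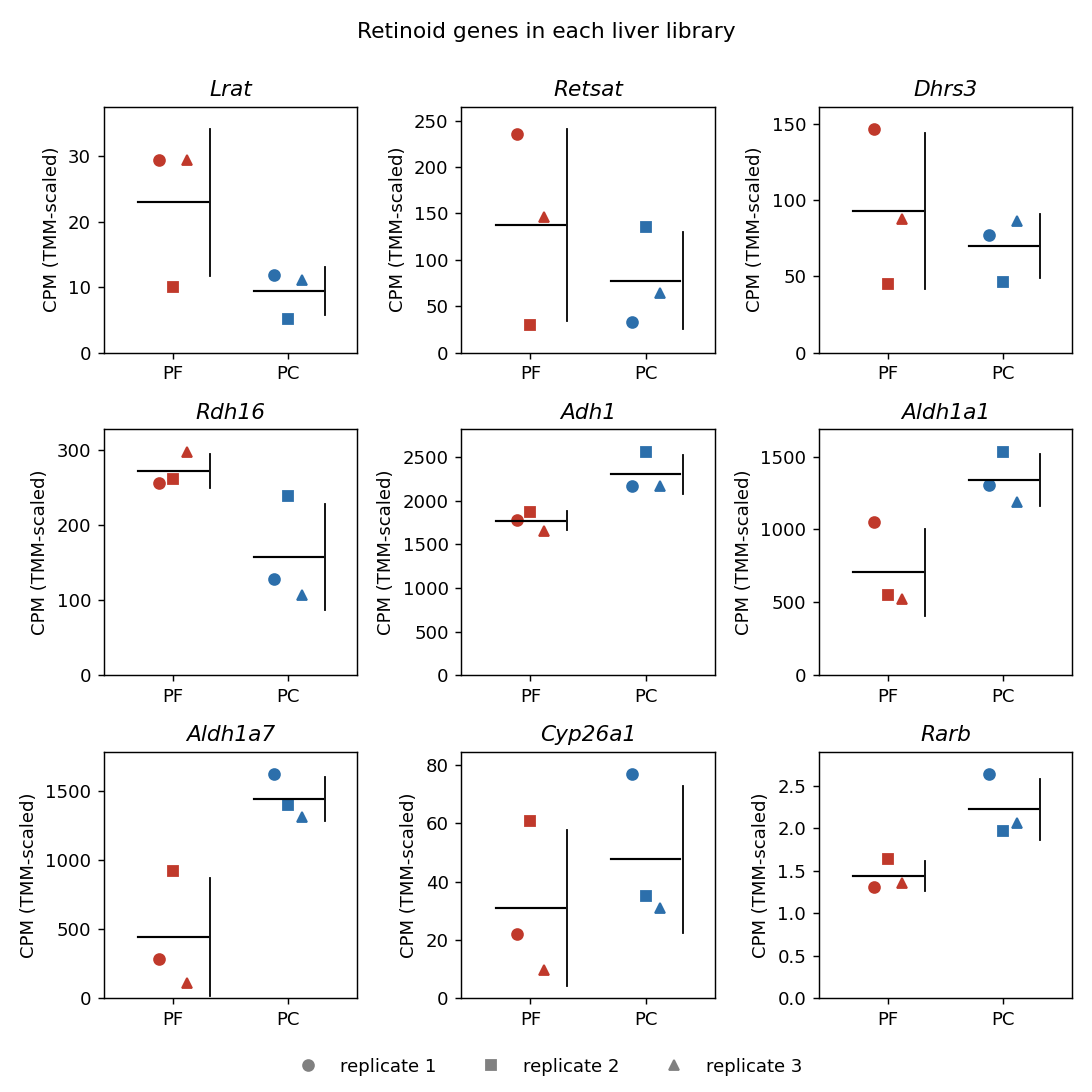
TMM-scaled CPM (y axis, starting at 0) of the 9 retinoid genes in PF and PC livers (x axis), with a point for each library, a horizontal line for the group mean and a vertical line for 1 SD (n = 3). Rdh16 lay higher in every PF library, Aldh1a1, Aldh1a7, Adh1 and Rarb lay lower, and the groups overlapped for Lrat, Retsat, Dhrs3 and Cyp26a1.

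Lrat (ENSMUSG00000028003, chromosome 3, 82799886 to 82811280 on GRCm39), lecithin retinol acyltransferase, makes the stored ester. It had 29.4, 10.0 and 29.4 CPM in PF livers, against 11.8, 5.15 and 11.2 CPM in PC livers. PF1 and PF3 were above every PC liver, and PF2 was below PC1 and PC3, so the groups overlapped. The log2 fold change was 1.29 (SE 0.46), a fold of 2.45, with an adjusted p of 0.234 in edgeR and 0.085 in DESeq2. In edgeR without PF2 it was 1.64 with an adjusted p of 0.0449. With no filter on low counts it was 1.26 with an adjusted p of 0.0234. Those settings called 403 and 555 genes in all. Without PF1, PF3 or PC2 the edgeR log2 fold change of Lrat was 1.07, 1.07 and 1.00, with adjusted p of 0.397, 0.413 and 0.300. The counts behind these values were 584, 165 and 627 in PF and 184, 81 and 195 in PC.

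Lrat is also a marker of stellate cells of the liver, whose other markers were measured beside it. The summed CPM of 24 stellate markers, without Lrat, was 557, 498 and 671 in PF livers, against 656, 484 and 716 in PC livers. Of the 18 that were tested, 0 were higher and 1, the matrix proteoglycan Lum, was lower at an unadjusted p under 0.05 in edgeR. Of all tested genes, 9.13% were higher and 7.9% were lower. The median log2 fold change of the 18 was -0.13. Set against the stellate marker Reln within each library, Lrat had a ratio of FPKM of 3.94, 1.86 and 3.66 in PF livers and 1.18, 0.906 and 1.09 in PC livers. Against Dcn it was 0.239, 0.102 and 0.181 in PF livers and 0.0831, 0.0517 and 0.0764 in PC livers. Neither ratio overlapped between the groups, and a ratio within a library does not depend on its scaling. Over all 18 tested stellate markers, the ratio of Lrat was higher in every PF liver for 10 and overlapped for 8, among them Hand2, Cygb, Vipr1 and Rgs5. The ratios to Reln and Dcn, like the others given here, were chosen after their values had been seen.

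Among the other genes of ester synthesis and hydrolysis, Pnpla3, a lipase with activity on retinyl esters, had 73.1, 315 and 184 CPM in PF livers, against 52.1, 115 and 62.7 CPM in PC livers, a log2 fold change of 1.32 (SE 0.53) with overlapping groups. Pnpla2, the triglyceride lipase, had 25.0, 31.0 and 23.9 CPM in PF livers, against 42.9, 45.1 and 37.0 CPM in PC livers. Its log2 fold change was -0.65 (SE 0.16), with an adjusted p of 0.166 in edgeR and 0.0275 in DESeq2. Without PF2 the edgeR value for Pnpla2 was -0.78 with an adjusted p of 0.0452. With library totals alone it was -0.29 with an unadjusted p of 0.114 in edgeR. Of the 10 tested genes in this role, 2 were higher and 1 was lower at an unadjusted p under 0.05. Over all tested genes these shares were 9.13% and 7.9%.

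Retsat (ENSMUSG00000056666, chromosome 6, 72575458 to 72585408), which saturates a double bond of retinol, varied more between livers than between diets. It had 236, 29.5 and 147 CPM in PF livers, against 33.3, 135 and 64.6 CPM in PC livers. The lowest liver of all was PF2 and the highest was PF1. The log2 fold change was 0.82 (SE 0.74), with an adjusted p of 0.608 in edgeR, and it was 0.18 without PF1 and 1.49 without PC2. Its highest PF library was 7.99 times its lowest, more than in 98.1% of tested genes, whose median spread was 1.40-fold in PF. In PC livers the spread of Retsat was 4.06-fold, beside a median of 1.32-fold.

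Dhrs3 (ENSMUSG00000066026, chromosome 4, 144619397 to 144654779), the retinal reductase, had 147, 44.7 and 87.9 CPM in PF livers, against 76.9, 46.0 and 86.5 CPM in PC livers. PF1 was high, and PF2 and PF3 were close to the range of the PC livers. The log2 fold change of 0.41 (SE 0.42, adjusted p = 0.660 in edgeR) was -0.07 without PF1, so its direction rested on that liver.

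Rdh16 (ENSMUSG00000069456, chromosome 10, 127637021 to 127682434), a retinol dehydrogenase of the short-chain family, had 256, 261 and 297 CPM in PF livers, against 128, 238 and 107 CPM in PC livers. The PF livers were within 1.16-fold of each other and all above the PC livers, of which PC2 came close. The edgeR log2 fold change was 0.78 (SE 0.31), a fold of 1.72, with an adjusted p of 0.262 in edgeR and 0.144 in DESeq2. Without PC2 it was 1.21, with an adjusted p of 0.106.

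The related genes around Rdh16 on chromosome 10 had lower values in PF livers, where Rdh16 had higher ones. Rdh1 (127595590 to 127604166) and Rdh9 (127612255 to 127628566) lie before Rdh16, and Rdh16f2 (127702343 to 127713186) and Rdh7 (127719897 to 127724686) lie after it. Rdh19, between Rdh16 and Rdh16f2, had at most 6 counts in a library and was not tested. Rdh1 had 1, 66 and 3 counts in PF livers, against 241, 94 and 117 counts in PC livers, so PF2 was near the lowest PC liver and PF1 and PF3 were close to none. The edgeR log2 fold change of Rdh1 was -2.81 (SE 1.13), with an adjusted p of 0.269. Without PF2 it was -6.50 with an adjusted p of 0.00885, and with no filter on low counts -2.83 with an adjusted p of 0.0166. With 1 and 3 counts in PF1 and PF3, the size of these fitted values depends on the prior count.

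Rdh9 had 1.51, 4.48 and 6.42 CPM in PF livers, against 24.7, 9.91 and 14.4 CPM in PC livers. Its log2 fold change was -1.98 (SE 0.53), with an adjusted p of 0.176 in edgeR and 0.0063 in DESeq2. Rdh16f2 had 203, 211 and 150 CPM in PF livers, against 458, 326 and 408 CPM in PC livers. Its log2 fold change was -1.08 (SE 0.22), with an adjusted p of 0.134 in edgeR and 2.2e-04 in DESeq2, and without PF2 it was -1.18 with an adjusted p of 0.0473 in edgeR. Rdh7, the most abundant of this cluster in FPKM, had 694, 815 and 717 CPM in PF livers, against 1308, 934 and 1195 CPM in PC livers, a log2 fold change of -0.63 (SE 0.22) with an adjusted p of 0.232 in edgeR and 0.0351 in DESeq2. In none of these 4 neighbours did a PF liver reach a PC liver in CPM, and in FPKM the groups overlapped for Rdh7. In CPM 11.1% of all tested genes were lower in every PF liver. These 4 were named because each had an unadjusted p under 0.05 in edgeR, so their separation partly follows from that choice. With library totals alone the log2 fold change of Rdh7 was -0.26 with an unadjusted p of 0.307 in edgeR. Farther along the chromosome (127826805 to 127843480), the related Hsd17b6 had 87.0, 269 and 101 CPM in PF livers, against 419, 279 and 244 CPM in PC livers, with PF2 inside the PC range.

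Within each library the ratio of Rdh16 to Rdh16f2 FPKM was 0.256, 0.252 and 0.403 in PF livers, against 0.0569, 0.149 and 0.0532 in PC livers. The ratio of Rdh16 to Rdh7 FPKM was 0.0994, 0.0863 and 0.112 in PF livers, against 0.0264, 0.0689 and 0.0241 in PC livers. To Rdh9 the ratio was 97.3, 33.6 and 26.7 in PF livers, against 2.99, 13.9 and 4.30 in PC livers. All 3 ratios were higher in every PF liver, with PC2 the nearest of the PC livers. These genes are related in sequence: of stretches of 50 bases, 6.28% of those of Rdh16 transcripts also occurred in Rdh9 and 10.9% of those of Rdh9 in Rdh16, and none was shared between Rdh16 and Rdh16f2. The division of reads between Rdh16 and Rdh9 is therefore uncertain, and more so for Rdh9, which had far fewer counts. Rdh9 had 30, 74 and 137 counts in PF livers, where Rdh16 had 5071, 4304 and 6342. Rdh16 also shared 1.62% of its stretches with Rdh1. The number of reads given to the wrong gene was not tested.

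**Figure D2:**
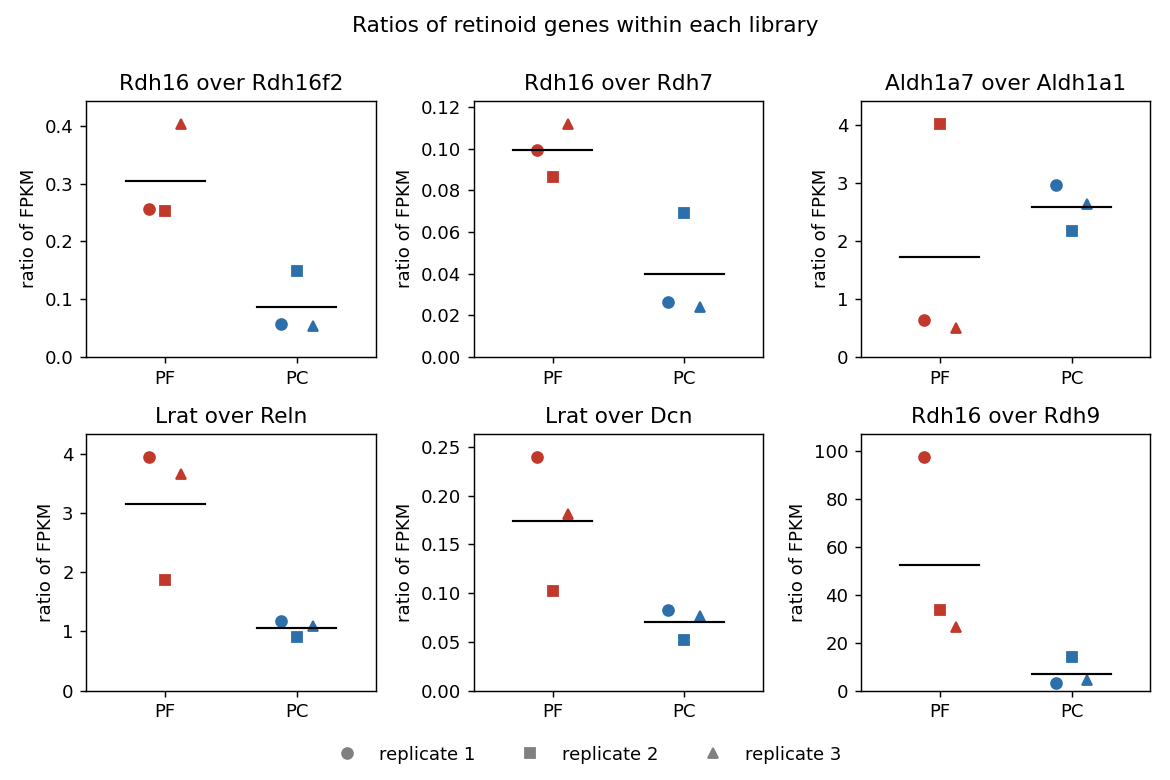
Ratios of FPKM within each library (y axes, starting at 0) for PF and PC livers (x axis), with a point for each library and a line for the group mean (n = 3). The ratios of Rdh16 to Rdh16f2, Rdh7 and Rdh9 and of Lrat to Reln and Dcn lay higher in every PF liver, and that of Aldh1a7 to Aldh1a1 overlapped, with PF2 at 4.02.

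Adh1 (ENSMUSG00000074207, chromosome 3, 137966752 to 137996459), the main alcohol dehydrogenase of liver, which also oxidises retinol, was the most abundant of the 9 genes. It had 1776, 1877 and 1657 CPM in PF livers, against 2173, 2562 and 2175 CPM in PC livers. The groups were tight and did not overlap in CPM. In edgeR the log2 fold change was -0.38 (SE 0.23), with an adjusted p of 0.443. With library totals alone as the scale it was -0.02 and the groups overlapped, so the separation in CPM came with the TMM factors. Adh4, another alcohol dehydrogenase, had 45.4, 42.0 and 44.3 CPM in PF livers, against 85.8, 47.5 and 62.4 CPM in PC livers (log2 fold change -0.57, SE 0.22). Dhrs4, a carbonyl reductase acting on retinal, had 97.0, 105 and 82.4 CPM in PF livers, against 131, 179 and 116 CPM in PC livers (log2 fold change -0.58, SE 0.21). For Adh4 and Dhrs4 the groups did not overlap in CPM and overlapped in FPKM. Rdh10, a widely expressed retinol dehydrogenase, had 34.2, 23.4 and 25.4 CPM in PF livers and 24.9, 19.4 and 26.5 CPM in PC livers, with overlapping groups and a log2 fold change of 0.23 (SE 0.20). Of 16 tested genes that interconvert retinol and retinal, 1 (Rdh16) was higher and 6 were lower at an unadjusted p under 0.05, beside 9.13% of all tested genes higher and 7.9% lower. In TMM-scaled CPM 8 of the 16 were lower in every PF liver, beside 11.1% of tested genes, and in FPKM 3 were (Rdh1, Rdh9 and Rdh16f2).

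Aldh1a1 (ENSMUSG00000053279, chromosome 19, 20470079 to 20620829), retinaldehyde dehydrogenase, had 1051, 548 and 522 CPM in PF livers, against 1304, 1532 and 1185 CPM in PC livers. All PF livers were below all PC livers, with PF1 the closest. The log2 fold change was -0.92 (SE 0.32), with an adjusted p of 0.225 in edgeR and 0.0458 in DESeq2. With library totals alone the log2 fold change was -0.53 with an unadjusted p of 0.181, and on the FPKM scale PF1, at 262 FPKM, stood within the PC range of 213 to 282.

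Aldh1a7 (ENSMUSG00000024747, chromosome 19, 20670317 to 20704926), a close copy of Aldh1a1 in the mouse, had the largest fold change of the tested members. It had 283, 923 and 111 CPM in PF livers, against 1619, 1398 and 1311 CPM in PC livers. All PF livers were below the PC livers in CPM and in FPKM, and they ranged over 8.32-fold, against 1.24-fold in PC livers. This was a log2 fold change of -1.72 (SE 0.68), so that PC livers were 3.29 times higher, with an adjusted p of 0.266 in edgeR and 0.0556 in DESeq2. In edgeR without PF2 it was -2.88 with an adjusted p of 0.0196. With no filter on low counts it was -1.74 with an adjusted p of 0.0365. Without PF1 and without PF3 it was -1.48 and -1.26 in edgeR, with adjusted p of 0.447 and 0.363.

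The PF liver with the most Aldh1a7 was not the one with the most Aldh1a1. The ratio of Aldh1a7 to Aldh1a1 FPKM was 0.644, 4.02 and 0.508 in PF livers, against 2.97, 2.18 and 2.64 in PC livers. PF2 was thus above, and PF1 and PF3 were below, every PC liver. Together the 2 genes had 431, 549 and 192 FPKM in PF livers, against 890, 896 and 777 FPKM in PC livers, which did not overlap. Of stretches of 50 bases, 7.49% of those of Aldh1a7 transcripts also occurred in Aldh1a1, and reads from these could have been counted for either gene. Activity on retinal, that of Aldh1a7 included, was not measured. Of 5 tested genes listed for retinal oxidation, 2, this pair, were lower at an unadjusted p under 0.05, beside 7.9% of all genes. DESeq2 called 1, Aldh1a1, as lower, beside 2.62% of all genes. The other 3 had log2 fold changes within 1 SE of 0, at -0.09 (SE 0.19) for Aldh8a1, -0.07 (SE 0.26) for Aox1 and -0.25 (SE 0.44) for Aox3. Their mean FPKM, which carries no TMM factor, was higher in PF livers, so their sign depended on the scaling.

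Markers of the pericentral zone of the lobule, measured beside these enzymes, had values in both directions. Of 12 tested, 2 were higher and 3 were lower at an unadjusted p under 0.05, beside 9.13% and 7.9% of all tested genes. The summed CPM of the pericentral list was 4170, 4037 and 6361 in PF livers, against 6501, 5751 and 4603 in PC livers. Of 10 periportal markers, 3 were higher and 2 were lower, beside the same shares of all tested genes. The summed CPM of the periportal list was 4008, 2929 and 4607 in PF livers, against 4295, 3043 and 4272 in PC livers. Both sums overlapped between the groups, and the part of zonation in the values of Rdh16, Aldh1a1 and Aldh1a7 was not tested.

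**Figure D3:**
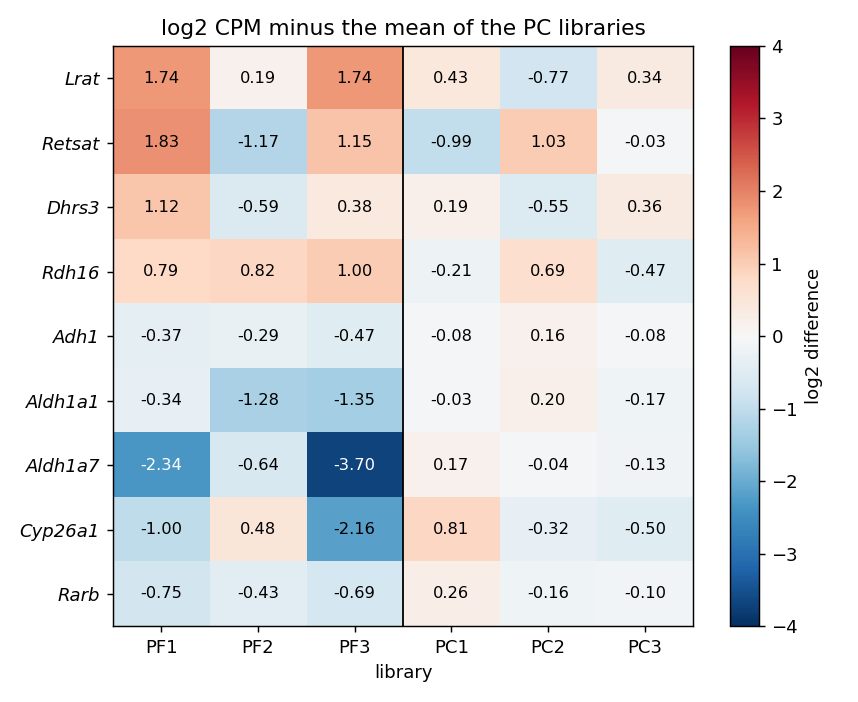
Log2 CPM of each of the 9 genes (rows) in each library (columns, PF left of PC), as the difference from the mean of the PC libraries, in log2 units by colour and number. Aldh1a7 was between -3.70 and -0.64 in PF livers, Rdh16 was between 0.79 and 1.00, and PF2 differed in sign from PF1 and PF3 for Retsat, Dhrs3 and Cyp26a1.

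Cyp26a1 (ENSMUSG00000024987, chromosome 19, 37686246 to 37689984), which hydroxylates retinoic acid and clears it, had 21.8, 60.9 and 9.75 CPM in PF livers, against 76.8, 35.0 and 31.0 CPM in PC livers. PF1 and PF3 were below every PC liver and PF2 was above PC2 and PC3. The edgeR log2 fold change was -0.63 (SE 0.64), with an adjusted p of 0.659 in edgeR. Without PF2 it was -1.60, with an adjusted p of 0.139, and without PC1 -0.10. The other family members had few counts. Cyp26b1 had 129, 9 and 44 counts in PF livers, against 7, 1 and 10 counts in PC livers, and Cyp26c1 had 24, 14 and 13 counts in PF livers, against 3, 8 and 2 counts in PC livers. Neither passed the filter.

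Rarb (ENSMUSG00000017491, chromosome 14, 5650540 to 6038924), a retinoic acid receptor whose own promoter carries the repeat shown above, had 26, 27 and 29 counts in PF livers, against 41, 31 and 36 counts in PC livers. In CPM these were 1.31, 1.64 and 1.36 in PF livers and 2.63, 1.97 and 2.06 in PC livers, with every PF liver lower. When fitted under a looser filter (filterByExpr in edgeR), the log2 fold change was -0.65 (SE 0.29), with an adjusted p of 0.327. Rarb overlaps Top2b on the other strand, which had 659 to 976 counts in PF libraries and 476 to 778 counts in PC libraries. No strand marking is stated for these libraries, so reads of either gene could have been given to the other. Over all libraries Top2b had 4503 counts and Rarb had 190. The part of Top2b reads in the Rarb values was not tested.

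Of 16 known targets of retinoic acid on the list used, 9 were tested, and 2 were higher (Lrat and Rarres2) and 0 were lower at an unadjusted p under 0.05 in edgeR, beside 9.13% of all tested genes higher and 7.9% lower. Rarres2, which encodes the secreted protein chemerin, had 261, 106 and 270 CPM in PF livers, against 100, 118 and 114 CPM in PC livers, with PF2 inside the PC range. Its log2 fold change was 0.94 (SE 0.34), with an adjusted p of 0.240 in edgeR, and without PF2 it was 1.26 with an adjusted p of 0.0126. Without PF1 and without PF3 it was 0.76 and 0.73 in edgeR, with adjusted p of 0.410 and 0.425. The median log2 fold change of the 9 targets was 0.20.

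The wider list of retinoid handling held 66 genes, of which 51 were tested. At an unadjusted p under 0.05 in edgeR 5 were higher and 11 were lower, beside 9.13% and 7.9% of all tested genes. In edgeR 0 passed the adjusted threshold, and the median log2 fold change was -0.16. Without the 9 genes described above these were 3 higher and 9 lower of 43. DESeq2 called 1 higher and 7 lower of the 51, beside 1.98% and 2.62% of all tested genes. For Pnpla3, Ttr, Adh4 and Dhrs4 the adjusted p in edgeR was 0.268, 0.254, 0.258 and 0.234, and DESeq2 called none of them. With library totals alone as the scale 12 were higher and 5 were lower at an unadjusted p under 0.05. In that setting 3606 of the 10756 tested genes were under it in either direction, and the median log2 fold change of all tested genes was 0.39. The balance of directions thus depended on the scaling.

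Among carriers of retinoids, Rbp4, which takes retinol out of the liver in blood, had 1261, 1680 and 1630 CPM in PF livers, against 2754, 2186 and 2261 CPM in PC livers. For Rbp4 the log2 fold change was -0.66 (SE 0.25), with an adjusted p of 0.258 in edgeR and 0.0304 in DESeq2. With library totals alone the log2 fold change of Rbp4 was -0.29 with an unadjusted p of 0.295 in edgeR. The groups did not overlap for Rbp4 in CPM. In FPKM they came close without overlapping, with PF3 at 1463 and PC2 at 1477. Its partner Ttr had 3260, 2213 and 3880 CPM in PF livers, against 1551, 2014 and 1851 CPM in PC livers, a log2 fold change of 0.79 (SE 0.30) in the opposite direction. Fabp5, a fatty acid carrier that also binds retinoic acid, had 240, 294 and 226 CPM in PF livers, against 52.7, 166 and 58.9 CPM in PC livers. Its log2 fold change was 1.45 (SE 0.44), with an adjusted p of 0.195 in edgeR and 0.0198 in DESeq2, and without PC2 it was 2.18 with an adjusted p of 0.0539 in edgeR.

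Bco1, which cleaves beta-carotene into retinal, had 7.05, 21.5 and 7.03 CPM in PF livers, against 33.0, 32.6 and 32.7 CPM in PC livers. The PC livers were almost equal and all PF livers were lower, PF2 the least. For Bco1 the log2 fold change was -1.47 (SE 0.43), with an adjusted p of 0.185 in edgeR and 0.0197 in DESeq2. In edgeR without PF2 it was -2.22 with an adjusted p of 0.0019. Without PF1 and without PF3 it was -1.21 and -1.20 in edgeR, with adjusted p of 0.319 and 0.349. Of 10 receptors and cofactors tested, 0 had an unadjusted p under 0.05 in edgeR, beside 9.13% of all tested genes higher and 7.9% lower. Rara had a log2 fold change of 0.20 (SE 0.15) and Rxra one of -0.28 (SE 0.19). The sign of Rxra turned to 0.10 with library totals alone.

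**Figure D4:**
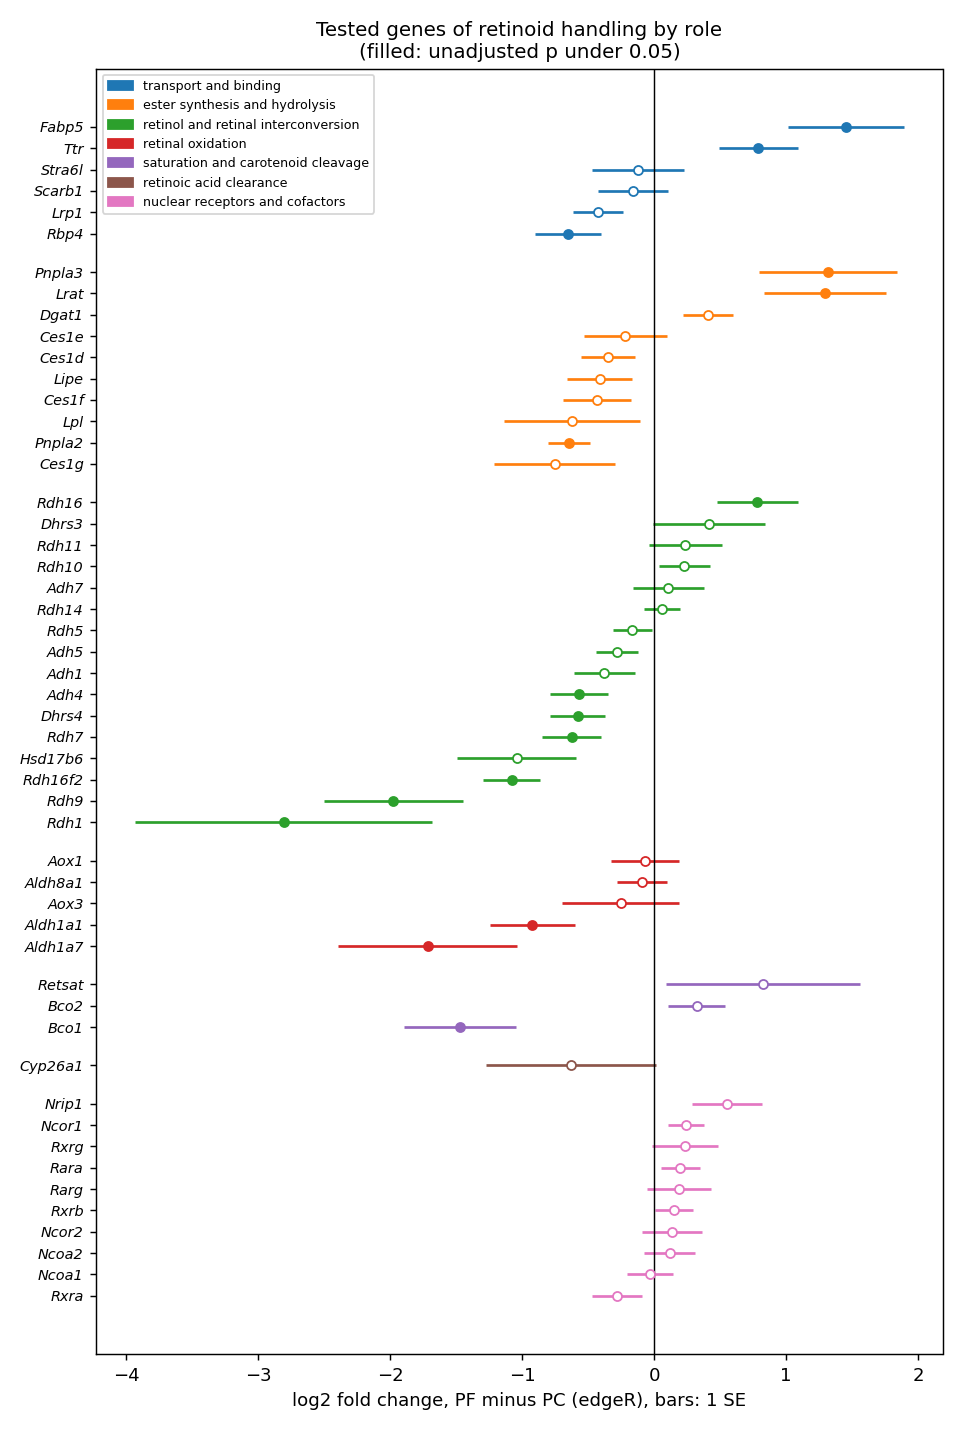
Log2 fold change, PF minus PC, from edgeR (x axis, bars of 1 SE) for the 51 tested genes of retinoid handling (y axis), coloured by role, with filled points for an unadjusted p under 0.05. Among enzymes that interconvert retinol and retinal, Rdh16 at 0.78 stood at the other end from Rdh1, Rdh9 and Rdh16f2.

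The tested genes whose profile over the 6 libraries was most like that of a retinoid gene were found by the root mean square distance between mean-centred log2 CPM values, given here in log2 units. This is a description over 6 libraries, which also differ in composition as given above. The nearest to Aldh1a1 was Cyp1a2 (0.16), a pericentral cytochrome P450, followed by Mvk and Cyp51, enzymes of sterol synthesis. The nearest to Aldh1a7 was Rogdi (0.18), followed by the prolactin receptor Prlr (0.23) and Cyp3a16 (0.28). Prlr had 374, 1908 and 228 CPM in PF livers, against 2717, 2452 and 2051 CPM in PC livers, so it too was high in PF2 alone among PF livers. The nearest to Lrat were Gas1, Slco1a4 and Abca8a. Those to Rdh16 were Ddo, Riok2 and Gstp3, and those to Adh1 were Rabepk, Gpr89 and Ssna1.

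Dhrs3 was nearest to Slc25a48 (0.10), Mfge8 and Acat3. Retsat was nearest to Abcc3 (0.33), Hao2 and Cyp2d9, and Cyp26a1 to Socs2 (0.32) and Slc43a1. Socs2, an inhibitor of growth hormone signalling, had 43.0, 57.9 and 14.1 CPM in PF livers, against 111, 46.6 and 51.0 CPM in PC livers. Like Cyp26a1, it was highest in PC1 and lowest in PF3.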

How the data were processed

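Liver RNA of 3 PF and 3 PC mice was grouped by the titles and the treatments in the labels. Same-numbered libraries share only a number. Litter and batch are not labelled, so each p-value reflects only how these samples vary.

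The table deposited by the authors holds whole-number counts per gene, not normalised, and FPKM values, with coordinates on GRCm39. The deposited FPKM values equal the count per kilobase of exonic length, scaled to 1e6 counts in the library total, within 0.005. HISAT2 2.2.1, cutadapt 1.9.1, DESeq2 and HTSeq 0.6.1 stand in the processing notes of the submitters, without settings. The sources used here give neither the annotation release nor the strand setting.

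The counts of genes averaging 1 FPKM or more were tested with edgeR 4.0.16 (R 4.3.3): TMM factors, quasi-likelihood test, two-sided, no covariate, Benjamini-Hochberg adjustment over 10756 genes, threshold 0.05. CPM is the count over the library total times its TMM factor, scaled to 1e6. DESeq2 1.42.0, limma 3.58.1 on log2(FPKM + 1) and log2(FPKM + 0.1), other factors and filters, a replicate block and leaving out each library were alternatives. No exact permutation test was run, since 3 against 3 cannot pass 0.05. On simulated counts for this comparison over 10756 genes, 4-fold changes were recovered in 100% of 55 genes, 2-fold in 35.2% of 71 and 1.5-fold in 5.41% of 74. There were 6 false calls. The simulated spread followed the trend with level alone, without the added spread of single genes or of PF2. Recovery in the real libraries can therefore be lower.

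The members and lists were chosen with earlier results of these data known. Named genes were all members, listed retinoid genes with an unadjusted p under 0.05, Rbp4, Rara, Rxra and Rdh10, and for each tested member the 3 genes nearest in profile. Promoters are RefSeq windows on GRCm38.p6, and transcripts for shared stretches were those of GENCODE on GRCm38. Some genes are not reported here and were left out of the lists and list counts after their values had been seen, but not of the test across all genes. Endothelial, Kupffer, cholangiocyte and leukocyte marker lists were also summed.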

Additional observations from a re-analysis of the deposited data

How the results depend on the processing

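The count of genes called over all 10756 was 0 in edgeR with TMM factors. It was 495 with DESeq2, 180 with library totals alone, 1 with filterByExpr, 555 with no filter, and 4 and 2 with limma on log2(FPKM + 1) and log2(FPKM + 0.1). Leaving out 1 library gave 0 to 403, with 403 without PF2 and 1 without PF1. With no filter, Rdh9, Rdh16f2, Bco1 and Fabp5 were among those called. The number of retinoid genes with an unadjusted p under 0.05 was 4, and 1 to 4 when a library was left out. On the wider list 5 were higher. These were 12 with library totals alone, 9 with no filter, 11 and 10 with limma at both pseudocounts, and 1 to 6 when a library was left out. The 11 lower ones were 5 with library totals alone, 5 and 5 with limma, and 5 to 11 when a library was left out. Over all 10756 genes, 1832 were under that p in either direction in the main test. There were 3606 with library totals alone, 3371 and 3398 with limma, and 3101 of 28042 with no filter. Direction turned for Dhrs3 without PF1 (-0.0732, where the highest value with 1 library left out was 0.738, without PF2) and for Rxra with library totals alone (0.10) and limma (0.0700 and 0.0719 at the larger and smaller pseudocounts). The median log2 fold change of all tested genes was 0.39 with library totals alone, 0.29 and 0.36 with limma, and 0.02 with TMM factors. The cause of these shifts was not tested. Over the alternatives of the 25 named genes, 359 values kept their direction and their side of the adjusted threshold, 22 passed it and 4 turned direction.

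With the replicate number as a block 0 genes were called, 2039 against 1832 at an unadjusted p under 0.05. Log2 fold changes under the block were 1.23 for Lrat, 0.87 for Rdh16, -0.995 for Aldh1a1 and -2.25 for Aldh1a7. Deviations of same-numbered libraries correlated at -0.13, 0.22 and 0.08, and of the PF libraries only PF2 correlated best with its own number, so the numbers were not taken to pair the samples. With 3 libraries per group, 35.2% of simulated 2-fold changes were recovered. In these livers Rdh9, 3.94-fold higher in PC, and Aldh1a7, 3.29-fold higher in PC, did not pass the adjusted threshold in edgeR. The limit of detection thus lay above 2-fold, and in edgeR with TMM factors no gene of any fold change passed. Rarb was under the filter and so was not in this test.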

Other observations

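Marker lists of other liver cell types gave the following values, chosen to show what else could differ in these bulk samples. Beside them, 9.13% of all tested genes were higher and 7.9% lower at an unadjusted p under 0.05 in edgeR. Of 9 Kupffer cell markers, 0 were higher and 1, the scavenger receptor Marco, was lower at an unadjusted p under 0.05 in edgeR, with summed levels of 255, 327 and 429 CPM in PF livers, against 440, 287 and 347 CPM in PC livers. Of 9 endothelial markers 0 passed in either direction, with 237, 209 and 213 CPM in PF livers, against 248, 188 and 206 CPM in PC livers. Of 7 cholangiocyte markers 1 was tested and did not pass, with summed levels of 57.9, 31.3 and 83.4 CPM in PF livers, against 56.1, 25.3 and 45.6 CPM in PC livers. Of 10 neutrophil and lymphocyte markers 4 were tested and 0 passed, with 39.0, 14.7 and 14.2 CPM in PF livers, against 14.3, 14.2 and 11.0 CPM in PC livers. Of the 10 hepatocyte markers 1 (Ttr) was higher and 3 (Apoa1, Trf and Serpina1a) were lower at an unadjusted p under 0.05, with a median log2 fold change of -0.55.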
